A study of Mus musculus with 24 samples.

Results

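The 10 enzymes described here make serine from a glycolytic intermediate and pass its carbon into the folate one-carbon pathway. They were chosen by gene symbol and fall into 3 serine synthesis enzymes (Phgdh, Psat1, Psph), 3 cytosolic folate enzymes (Shmt1, Mthfd1, Aldh1l1) and 4 mitochondrial folate enzymes (Shmt2, Mthfd2, Mthfd1l, Aldh1l2). All 10 were found among the 38937 genes of the shRNA count table and among the 39310 genes of the siRNA count table, and all 10 passed the filter on low counts in both. RNA-seq covered 24 libraries of mouse lung adenocarcinoma cells grown in culture, which the series describes as sorted tumour cells positive for GFP and negative for CD45. They form 6 groups of 4. In the shRNA table, eIF2αS/S cells (S/S, wild-type eIF2α) carried a scramble shRNA (shControl) or an shRNA against Atf4 (shAtf4). In the siRNA table, S/S cells and eIF2αA/A cells (A/A, with the phosphorylated serine of eIF2α replaced by alanine) received siControl or siChchd10. The titles give the S/S or A/A genotype, while a further label calls the A/A siControl libraries wild type; the titles were followed here. The labels do not name the tumour model, the age of the animals, the number of lines or clones behind each genotype, or the time after knockdown.

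Serine synthesis starts with PHGDH, which oxidises 3-phosphoglycerate, continues with the aminotransferase PSAT1, and ends with the phosphatase PSPH. The hydroxymethyltransferases SHMT1 in the cytosol and SHMT2 in mitochondria then move a carbon from serine to tetrahydrofolate and leave glycine. In mitochondria, MTHFD2 oxidises this carbon to the formyl level and MTHFD1L releases it as formate, which the cytosolic enzyme MTHFD1 can attach to folate again for purine and thymidylate synthesis. ALDH1L1 in the cytosol and ALDH1L2 in mitochondria oxidise formyl-tetrahydrofolate to carbon dioxide and yield NADPH. ATF4, whose translation rises once eIF2α carries its stress phosphate, is a transcription factor known to activate genes of serine synthesis and of the mitochondrial folate branch, and stress from defective mitochondria is known to raise them. CHCHD10 resides between the outer and inner membranes of mitochondria.

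In the mouse assembly mm10 with GENCODE M21 annotation, the serine synthesis genes lie on separate chromosomes, Phgdh at chr3:98313170-98339990 (minus strand), Psat1 at chr19:15904678-15947337 (minus strand) and Psph at chr5:129765558-129787449 (minus strand). The cytosolic enzymes are Shmt1 at chr11:60788104-60811718 (minus strand), Mthfd1 at chr12:76255298-76319803 (plus strand) and Aldh1l1 at chr6:90486427-90600203 (plus strand). The mitochondrial enzymes are Shmt2 at chr10:127517123-127522444 (minus strand), Mthfd2 at chr6:83305691-83325908 (minus strand), Mthfd1l at chr10:3973118-4167081 (plus strand) and Aldh1l2 at chr10:83487450-83534140 (minus strand). How reads were summed for each gene is not given in the sources used here, and levels per kilobase use the annotated exon bases of each gene.

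Promoters were read from RefSeq (GRCm38.p6, the assembly named mm10) as the 250 bases before the start that its table gives for each gene, on the gene's strand. Those starts differ from the ends of the GENCODE spans above: the windows of Psat1, Mthfd2, Shmt1 and Aldh1l1 lie inside the longer GENCODE spans, and those of Psph and Phgdh reach into them. An entry was found for 9 of the 10 enzymes, with none for Aldh1l2. Psat1 had 2 entries, and the other, further downstream, held 0 CCAAT boxes; a gene counts as having a motif where any entry holds it. The C/EBP-ATF composite motif TGATGNAA, which ATF4 is known to bind, was in the window of 0 of the 9, against 3.45% of all 32851 promoters. Its variant TGACGNAA was in 1 of the 9, Shmt1, against 1.39% of promoters, and the E-box CACGTG was in 0, against 6.02%. The CCAAT box, CCAAT, was in 7 of the 9, against 33.8% of promoters, and was not in the windows of Shmt2 and Mthfd1l. The core TGACGT of the cyclic AMP response element was in 1, Mthfd1l, against 6.47%. Both strands were searched, and TGACGNAA and TGACGT can share letters, though they did not in these windows. A match is only a run of letters, and a window without one says nothing about sites elsewhere in the gene. The windows shown are those of Psat1 and Mthfd2, which both fell with siChchd10 in S/S cells, and of the cytosolic Shmt1, which did not fall, with the CCAAT box, or its complement ATTGG, in capitals.
Psat1 (chr19:15925061-15925125, minus strand): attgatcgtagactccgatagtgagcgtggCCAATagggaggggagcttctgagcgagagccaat
Mthfd2 (chr6:83317666-83317730, minus strand): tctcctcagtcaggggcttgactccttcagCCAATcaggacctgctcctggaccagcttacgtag
Shmt1 (chr11:60811278-60811342, minus strand): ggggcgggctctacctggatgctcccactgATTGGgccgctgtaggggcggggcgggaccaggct

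The Psat1 window ran up to the start and held a further CCAAT 6 bases before it, in lower case at the end of the run shown. The Mthfd2 box lay 96 bases before the start and was 1 of 3 in that promoter. The Shmt1 box lay 47 bases before the start on the opposite strand. The variant composite motif of Shmt1 lay 131 bases before the start, also on the opposite strand, and is shown in capitals in its own window.
Shmt1, composite variant (chr11:60811359-60811426, minus strand): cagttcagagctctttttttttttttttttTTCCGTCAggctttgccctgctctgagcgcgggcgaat

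Library totals ran from about 14067300 to 70932800 counts in the shRNA table and from 42863600 to 75409500 in the siRNA table, and levels are given as CPM, which scales each library to a total of 1000000 counts, after TMM adjustment. The summed level of 8 epithelial markers ranged from 3831 to 6785 CPM over the 24 libraries, and the summed leukocyte, fibroblast and endothelial lists reached at most 4.96, 18.4 and 3.10 CPM. Of the alveolar type 2 list, which marks the lung cell that adenocarcinomas resemble, Nkx2-1, Sftpa1 and Sftpd were at 0 in the shRNA libraries. The 9 genes of that list still summed to 84.5 to 134 CPM in shControl and 84.1 to 123 CPM in shAtf4 libraries. The highest was Etv5 in shControl (mean 58.7 CPM) and Abca3 in shAtf4 (mean 60.1 CPM). In the shRNA table, replicate 4 of both groups stood apart on the first principal component (-46.0 and -36.1, against 5.47 to 20.6 for the other 6 libraries), with a summed interferon marker level of 122 and 311 CPM against 699 to 1887 CPM. The shControl and shAtf4 libraries also differed in 4 Y-linked genes, at 111 to 135 and 1.46 to 3.56 CPM in sum, so that the knockdown and a different cell population cannot be told apart. In the siRNA table, genotype made up the first component (92.9% of the variance among the 1000 most variable genes). A/A libraries also held more Y-linked RNA (288 to 379.6 CPM) than S/S libraries (104 to 144 CPM). The eIF2α allele and the origin of the lines therefore cannot be told apart either. Library 1 of A/A siControl lay toward S/S on that component (-36.6, against -59.2 to -66.9 for the other 3), and 4 RNAs abundant in S/S cells and near 0 in A/A siChchd10 libraries were at 6.41% of their S/S siControl level in it, at 0.834% in library 2 and at most 0.0158% in the other A/A libraries. Atf4 was at 498 to 835 CPM in shControl and 225 to 319 CPM in shAtf4 libraries, and Chchd10 fell from 42.6 ± 3.84 to 6.30 ± 0.668 CPM in S/S and from 8.93 ± 1.13 to 1.83 ± 0.352 CPM in A/A cells with siChchd10 (SD, n = 4). In bulk RNA, fewer cells with a transcript and less transcript per cell cannot be told apart.

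Levels of different genes were compared per kilobase of annotated exon, since longer transcripts collect more reads. By that scale Phgdh and Psat1 were the most abundant of the 10 in the siRNA libraries, at 367 and 278 CPM per kb in S/S siControl and 302 and 265 CPM per kb in A/A siControl. The order below them in S/S siControl was Mthfd2 (120.0), Shmt2 (104), Psph (59.6), Mthfd1 (41.1), Shmt1 (31.3), Mthfd1l (18.2), Aldh1l2 (14.1) and Aldh1l1 (0.0239 CPM per kb). In S/S siControl the libraries of each gene in this order lay above all libraries of the next. In A/A siChchd10 the order differed: Psat1 and Phgdh (320.2 and 319 CPM per kb) overlapped, and Mthfd1 came next (87.1), above Mthfd2 (77.1) and Shmt2 (71.1). Per kilobase, Shmt2 lay above Shmt1 in all 6 groups, and Mthfd2 lay above Mthfd1 in all but A/A siChchd10. In S/S shControl, Psat1 stood at 116 CPM per kb, below Shmt2 (148) and Mthfd2 (135), whose ranges overlapped its own. The tables were normalised separately, so this difference from the siRNA libraries was not tested.

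Aldh1l1 was near the limit of detection, with 3 to 22 counts in each siRNA library and 8 to 178 counts in each shRNA library. Where its value is given, it rests on those few counts. Psph shares 26.1% of its exon bases with Cct6a, Aldh1l2 17.3% with D10Wsu102e, Aldh1l1 10.5% with Gm15756 and Shmt1 6.44% with Smcr8, each on the opposite strand. Whether the counting used strand is not stated in the sources used here, and reads over those bases could belong to either gene.

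**Figure D1:**
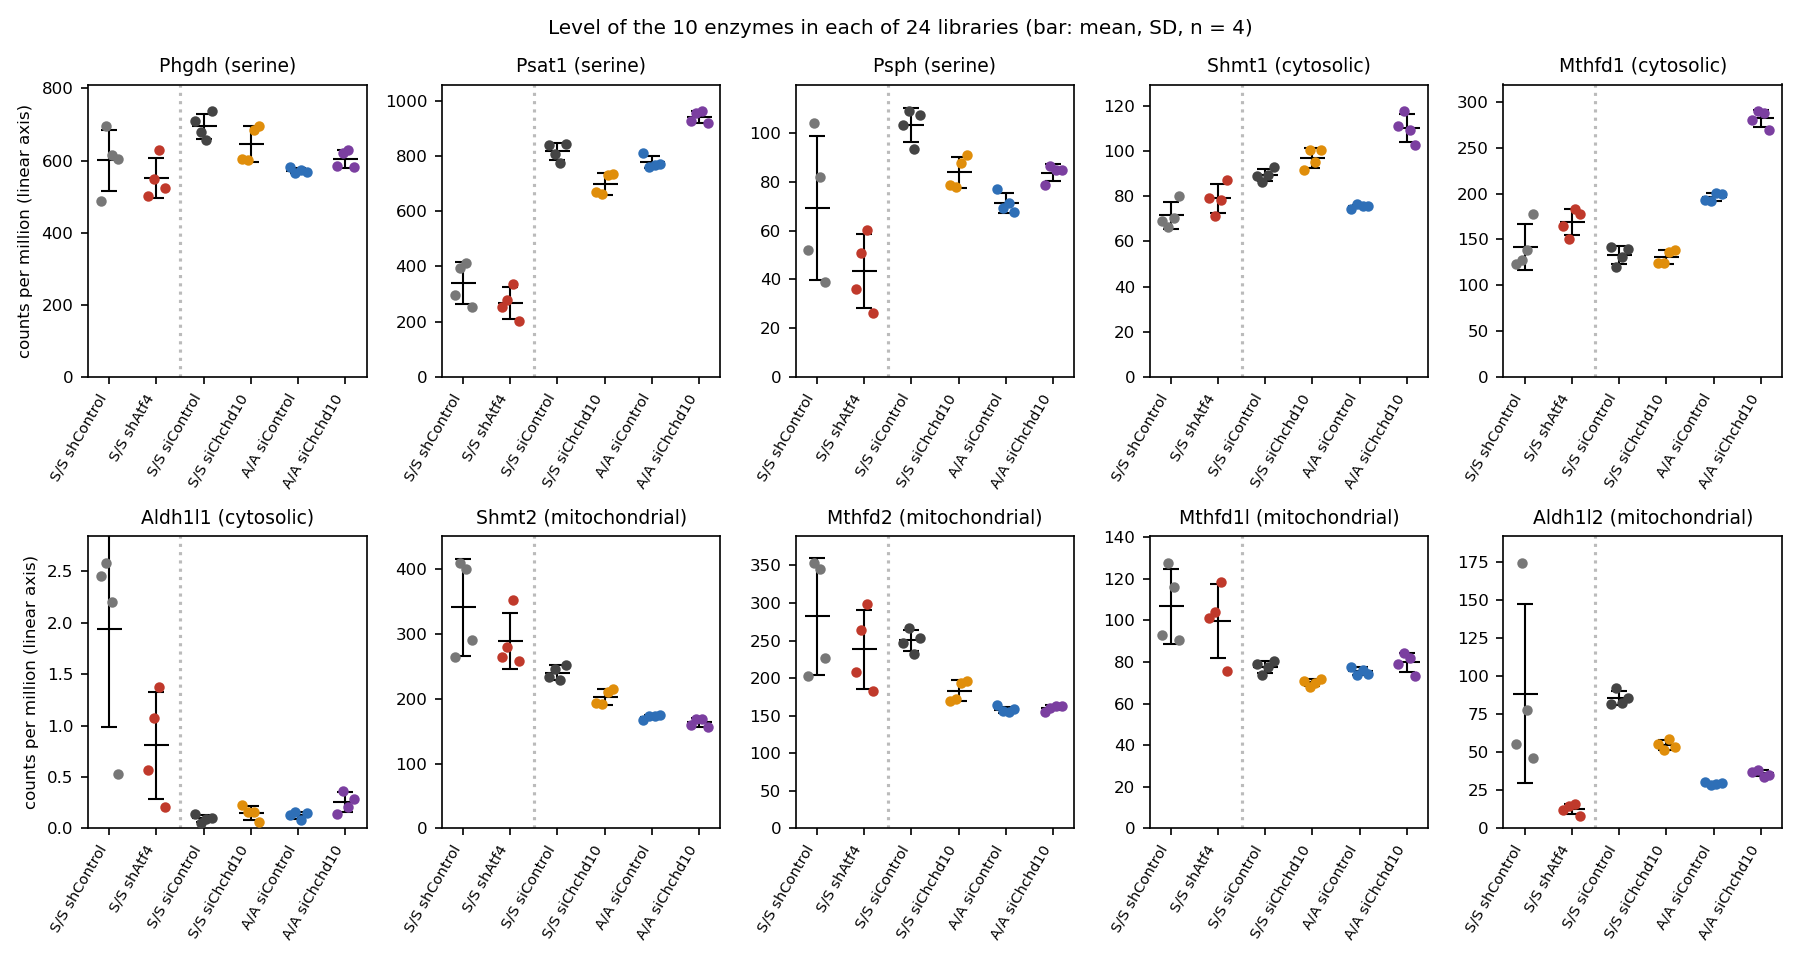
CPM of each enzyme (y axis, linear, from 0) in every library of the 6 groups, with the mean and SD of 4 libraries as bars and a dotted line between the separately normalised shRNA and siRNA tables. Aldh1l2 lies lowest in S/S shAtf4 (8.19 to 16.1 CPM), and Mthfd1 highest in A/A siChchd10 (269.8 to 290.1 CPM).

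Atf4 knockdown in S/S cells was compared first, to ask which of these enzymes depend on ATF4. Aldh1l2 was at 55.5, 175, 77.5 and 46.4 CPM in shControl libraries 1 to 4 and at 12.1, 14.9, 16.1 and 8.19 CPM in shAtf4 libraries 1 to 4. Every shAtf4 library lay below every shControl library, and the control values spread widely, led by library 2. Aldh1l2, the mitochondrial formyl-tetrahydrofolate dehydrogenase, fell by 2.80 on the log2 scale (SE 0.437, edgeR adjusted p = 0.0357). It was the only enzyme of the 10 past the threshold, against 0.538% of all 14697 genes tested (0.150% higher, 0.388% lower). When 1 of the 8 libraries was left out, its log2 change ran from -3.01 (without shControl library 4) to -2.22 (without shControl library 2, the high one). It kept an adjusted p under 0.05 in those 2 of the 8 cases (0.00876 and 0.0378), and the other 6 gave 0.0666 to 0.137. The other 9 enzymes had log2 changes from -1.35 (Aldh1l1) to 0.26 (Mthfd1), and the median over all 10 was -0.24 beside -0.005 for all genes.

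Libraries with the same replicate number deviated together in the shRNA table, least clearly for number 3, so the number was also fitted as a block. This changed the calls. The pairing was taken from these same data and is not stated by the labels, so the blocked results depend on it. With the replicate block, 7 of the 10 enzymes passed, 6 lower and 1 higher, where 20.2% of all genes passed (10.1% higher and 10.1% lower). In serine synthesis, Psat1 and Psph passed and Phgdh did not. Psph was at 51.8, 104, 81.9 and 39.0 CPM in shControl 1 to 4 and at 36.2, 50.7, 60.2 and 26.2 CPM in shAtf4 1 to 4. The groups overlapped, yet the shAtf4 library was the lower one in 4 of 4 same-numbered pairs. Its log2 change was -0.68 (SE 0.341, edgeR adjusted p = 0.544) without the block and -0.65 (SE 0.0880, adjusted p = 0.000214) with it. Psat1 was at 298, 393, 413 and 253 CPM in shControl and at 252, 279, 337 and 202 CPM in shAtf4 libraries, again lower in 4 of 4 pairs, with log2 changes of -0.34 without the block (adjusted p = 0.602) and -0.34 with it (adjusted p = 0.000643). Phgdh, the enzyme of the committed step, was lower in 2 of 4 pairs and did not pass in either fit (-0.12, adjusted p = 0.237 with the block).

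In the blocked fit, 3 of 4 mitochondrial folate enzymes fell, while of the 3 cytosolic ones 1 rose and 1 fell. The mitochondrial Mthfd2 (-0.23, SE 0.0672, adjusted p = 0.0261), Shmt2 (-0.23, SE 0.0749, adjusted p = 0.0484) and Aldh1l2 (-2.64, SE 0.289, adjusted p = 0.00981) fell, each of the first 2 in 3 of 4 pairs and Aldh1l2 in 4 of 4. Mthfd1l, which makes formate in mitochondria, did not pass (-0.10, adjusted p = 0.341). The cytosolic Mthfd1 rose (0.27, SE 0.0671, adjusted p = 0.0107), being higher in 4 of 4 pairs, and Shmt1 was higher in 4 of 4 pairs without passing (0.14, adjusted p = 0.0883). Cytosolic Aldh1l1 fell (-1.27, adjusted p = 0.00754), from 2.45, 2.58, 2.20 and 0.526 CPM to 0.570, 1.07, 1.38 and 0.209 CPM. Without both replicate 4 libraries and without the block, 3 enzymes passed, Aldh1l2 (-2.82, adjusted p = 0.0233) and Aldh1l1 (-1.21, adjusted p = 0.0286) lower and Mthfd1 (0.36, adjusted p = 0.0223) higher, beside 11.7% of all genes (5.58% higher, 6.14% lower).

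**Figure D2:**
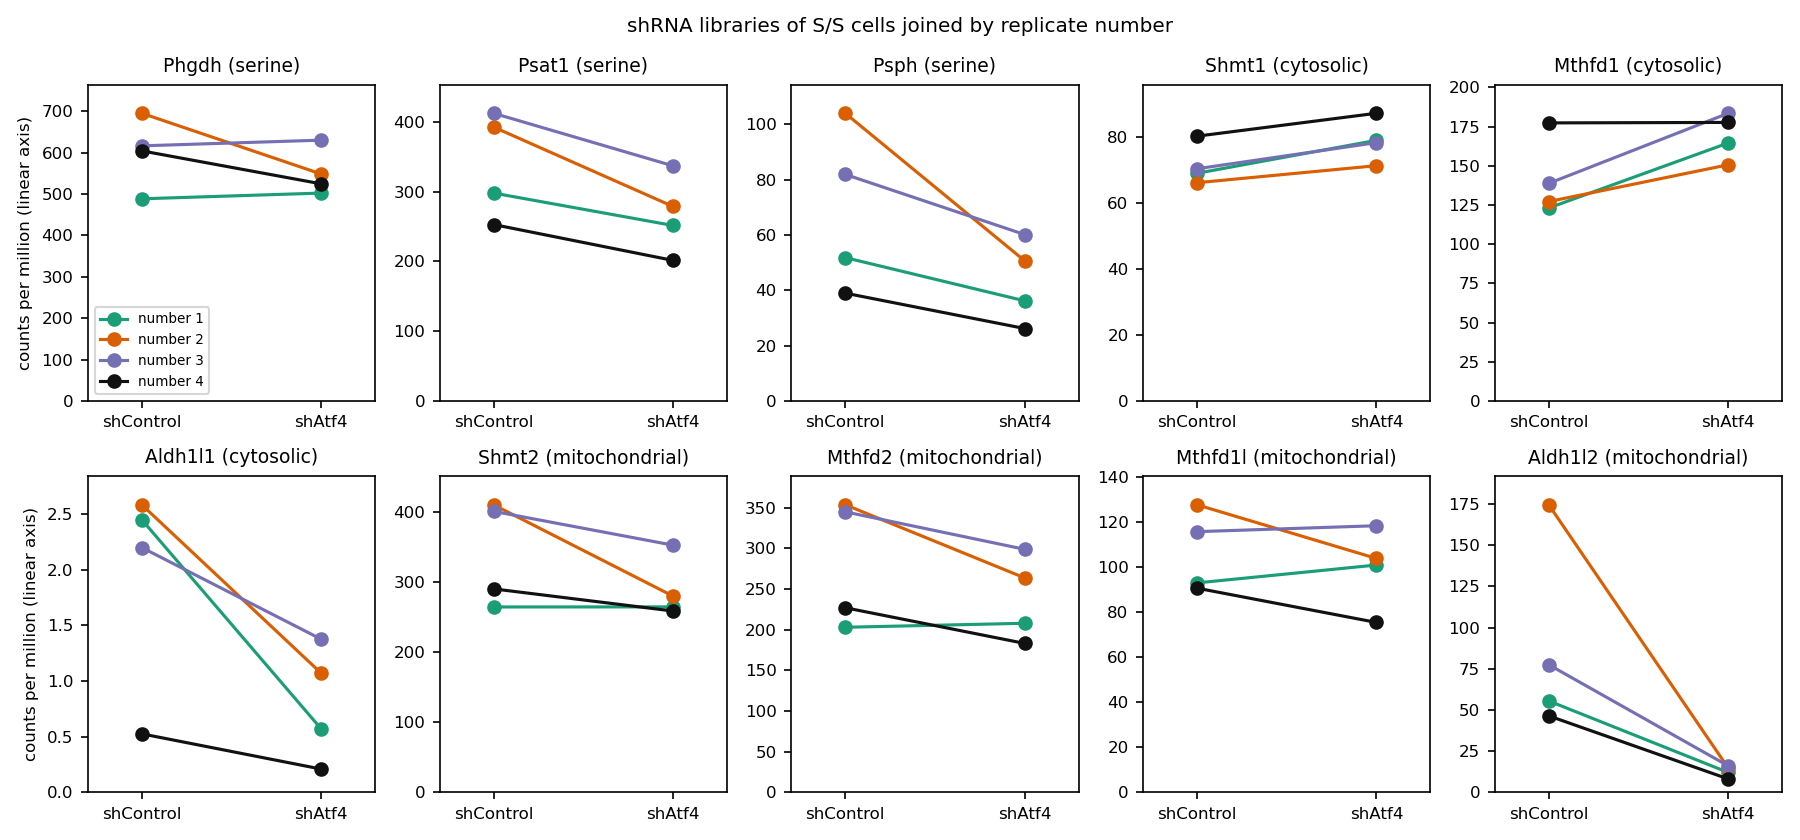
CPM of each enzyme (y axis, linear, from 0) in the 8 shRNA libraries, with shControl and shAtf4 libraries of the same replicate number joined by a line. Psat1, Psph, Aldh1l1 and Aldh1l2 lines all run downward and Shmt1 and Mthfd1 lines all run upward, while number 2 starts far above the rest for Aldh1l2 (175 CPM).

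Chchd10 knockdown in S/S cells lowered the mitochondrial folate enzymes, all 4 of which passed. In all, 6 of the 10 enzymes fell and 1 rose, beside 28% of 18138 genes called (15% higher and 13% lower). The median over the 10 was -0.18 on the log2 scale, beside 0.00 for all genes. Aldh1l2 was at 81.8, 92.4, 82.6 and 85.7 CPM in siControl libraries 1 to 4 and at 55.3, 51.4, 58.9 and 53.4 CPM in siChchd10 libraries 1 to 4. The groups lay well apart, and Aldh1l2 fell by 0.65 (SE 0.0482, edgeR adjusted p = 2.98e-11), the largest fall among the 10.

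Mthfd2, the mitochondrial dehydrogenase, was at 247, 267, 233 and 254 CPM with siControl and at 169.8, 173, 194 and 196 CPM with siChchd10. No siChchd10 library reached the lowest control, and Mthfd2 fell by 0.45 (SE 0.0466, edgeR adjusted p = 1.45e-08). Shmt2 was at 234, 246, 229 and 253 CPM and at 194, 192, 210.4 and 216 CPM, and fell by 0.25 (SE 0.0436, adjusted p = 7.15e-05). Mthfd1l fell by 0.14 (SE 0.0425, adjusted p = 0.0110), the smallest change that passed among the mitochondrial enzymes. Of the cytosolic enzymes, Mthfd1 was at 142, 119.8, 131 and 140.1 CPM with siControl and at 124, 125, 136 and 138 CPM with siChchd10, in overlapping ranges (-0.03, adjusted p = 0.729, 95% interval -0.12 to 0.07). Shmt1 rose by 0.12 (SE 0.0420, adjusted p = 0.0372), a call that was lost with other size factors (adjusted p = 0.0515), with DESeq2 (0.0525), without the count filter (0.0553) and without any 1 of 5 of the 8 libraries (0.0593 to 0.122).

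In serine synthesis, Psat1 was at 839.8, 806, 776 and 842 CPM with siControl and at 669, 663, 731 and 736 CPM with siChchd10 in S/S cells. It fell by 0.22 (SE 0.0436, edgeR adjusted p = 0.000247), with no overlap between groups. Psph was at 103, 109, 93.5 and 107 CPM and at 78.7, 77.9, 87.7 and 90.8 CPM, and fell by 0.30 (SE 0.0534, adjusted p = 8.51e-05). These libraries also differed in interferon markers, at 121 to 148 CPM in sum with siControl and 56.7 to 60.2 CPM with siChchd10, and in epithelial markers, of which 6 of 8 rose, and their part in the result was not tested. Phgdh, at 695 ± 35.1 and 647 ± 50.2 CPM (SD, n = 4), did not pass (-0.10, adjusted p = 0.115).

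In A/A cells the same knockdown gave another pattern: 6 of the 10 enzymes rose and 0 fell (DESeq2 called 5 and 0), beside 53.7% of genes called (26.5% higher, 27.2% lower). At an unadjusted p under 0.05, 0 were lower, and the only negative value was that of Shmt2 (-0.07, edgeR adjusted p = 0.159). The median over the 10 was 0.25, beside -0.01 for all genes. All 3 cytosolic folate enzymes rose, though Aldh1l1 only with the limits given below. Mthfd1 was at 194, 192, 200.3 and 199 CPM with siControl and at 280.4, 290.1, 288 and 269.8 CPM with siChchd10. The groups were far apart relative to their spread, and Mthfd1 rose by 0.52 (SE 0.0467, adjusted p = 2.26e-10). Shmt1 was at 74.4, 76.4, 75.6 and 75.7 CPM and at 111, 118, 109 and 103 CPM, and rose by 0.54 (SE 0.0421, adjusted p = 1.29e-11). Aldh1l1 rose by 0.96 (SE 0.394, adjusted p = 0.0402), from 4 to 8 counts a library to 7 to 22 counts. Its groups overlapped, and it did not pass with DESeq2 (adjusted p = 0.109). Its highest levels were in A/A siChchd10 libraries 2, 3 and 4 (0.369, 0.213 and 0.289 CPM) and S/S siChchd10 library 1 (0.229 CPM). Aldh1l1 passed the low count filter through these libraries, mostly of the group that was higher. Its call among the 6 is therefore no separate support for a rise.

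Of the mitochondrial enzymes in A/A cells, Aldh1l2 alone rose with siChchd10. It was at 30.4, 28.7, 29.3 and 29.6 CPM with siControl and at 37.4, 38.5, 34.1 and 34.99 CPM with siChchd10 (0.30, SE 0.0508, edgeR adjusted p = 1.55e-05). Mthfd2 was at 164, 156, 155 and 158 CPM and at 156, 161, 163 and 163 CPM. Those ranges overlapped, and the 95% interval of its log2 change ran from -0.07 to 0.11 (adjusted p = 0.710). Mthfd1l did not pass either (0.08, adjusted p = 0.127). Psat1, the aminotransferase of serine synthesis, rose by 0.27 (SE 0.0436, adjusted p = 5.61e-06), from 811, 760.4, 768 and 772 CPM to 926, 954, 962 and 918 CPM. Psph rose by 0.23 (SE 0.0538, adjusted p = 0.000700), while Phgdh did not pass (0.08, adjusted p = 0.185). These increases came with 1447 to 1704 CPM of summed alveolar type 2 markers in A/A siChchd10 libraries against 553 to 616 CPM in A/A siControl, with 15 of 18 S phase genes higher and with 7 of 10 interferon markers lower. Their part in the result was not tested.

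The difference between genotypes was itself tested as an interaction, the siChchd10 effect in A/A minus that in S/S. The effect was higher in A/A for 9 of the 10 enzymes and lower for 0 (0 lower also at an unadjusted p under 0.05 and with DESeq2), beside 35.6% of genes called (16.7% higher, 18.9% lower). The median over the 10 was 0.45, beside -0.01 for all genes. The difference was largest for Aldh1l2 (0.94, SE 0.0700, edgeR adjusted p = 4.89e-11), which fell in S/S and rose in A/A cells. Psat1 and Psph also changed in opposite directions in the 2 genotypes, with differences of 0.50 (SE 0.0616, adjusted p = 4.14e-07) and 0.53 (SE 0.0758, adjusted p = 4.44e-06). Mthfd1 differed by 0.55, Mthfd2 by 0.47, Shmt1 by 0.43 and Mthfd1l by 0.22. Phgdh (0.18, adjusted p = 0.0399) and Shmt2 (0.17, adjusted p = 0.0301) were near the threshold, and lost their calls without some single libraries: Phgdh without any 1 of 6 and Shmt2 without any 1 of 2. Atf4 RNA fell with siChchd10 in both genotypes, by 0.21 in S/S and by 0.38 in A/A cells, and its own difference did not pass (-0.17, adjusted p = 0.0932). Chchd10 started lower in A/A siControl than in S/S siControl libraries (8.93 against 42.6 CPM), and the part of that starting level in the difference was not tested.

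**Figure D3:**
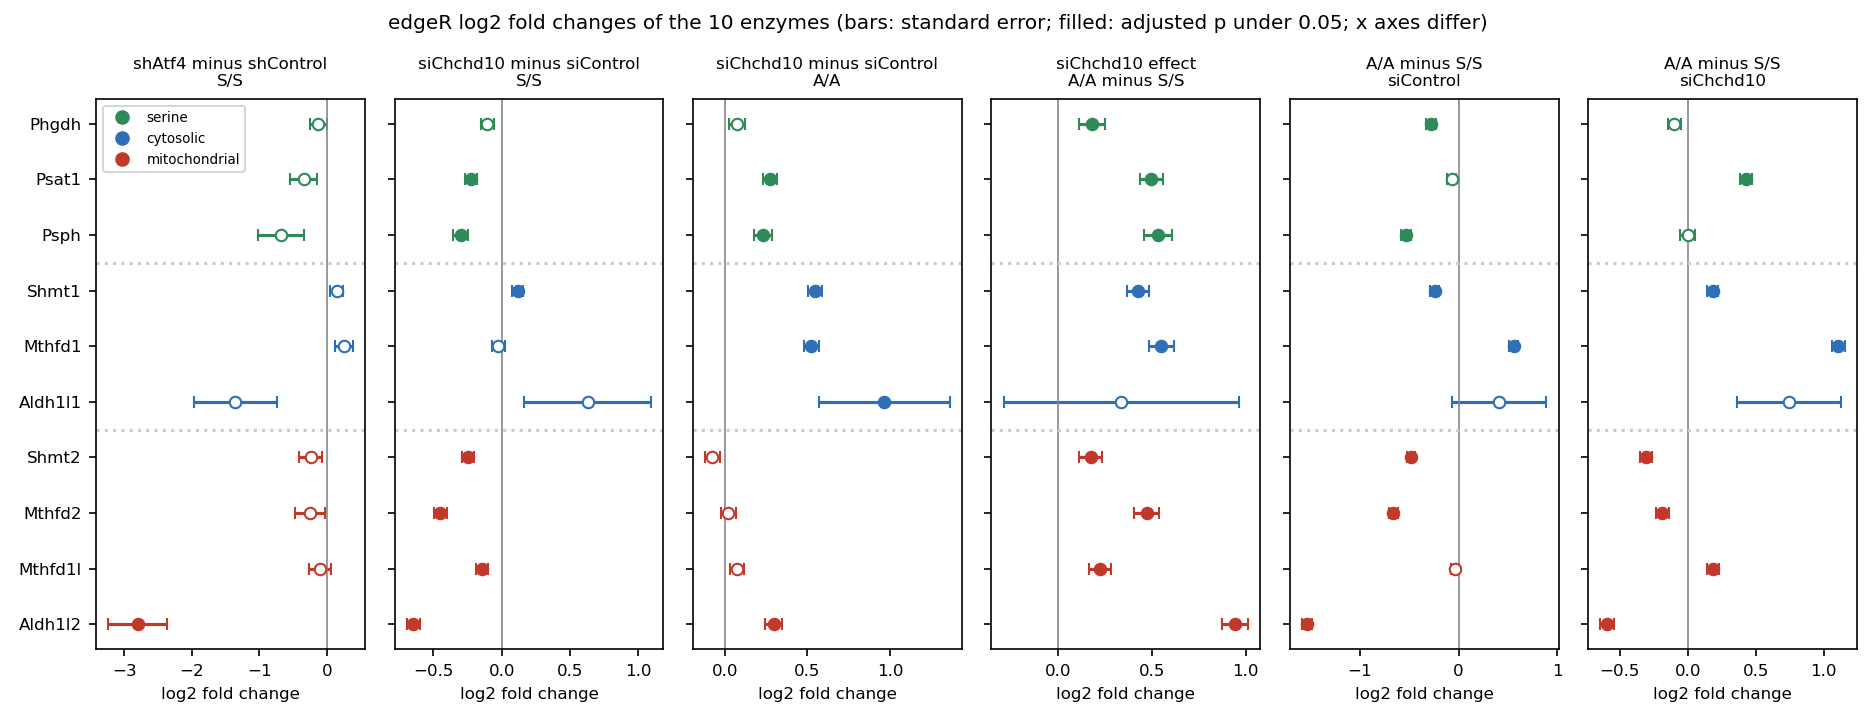
Log2 fold change of each enzyme from edgeR (x axis, its range differing between panels) with its standard error, for the 6 comparisons, with filled points where the adjusted p was under 0.05. The 4 mitochondrial enzymes lie left of 0 in S/S siChchd10, whereas no filled point lies left of 0 in A/A siChchd10.

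Under siControl, A/A cells were compared with S/S cells, and 6 of the 10 enzymes were lower in A/A and 1 was higher, beside 70.2% of genes called (35.6% higher, 34.7% lower), so a call alone sets no gene apart in this comparison. The median over the 10 was -0.26, beside 0.01 for all genes. Aldh1l2 fell from 85.6 ± 4.85 CPM in S/S to 29.5 ± 0.698 CPM in A/A (SD, n = 4), by 1.54 on the log2 scale (SE 0.0501, edgeR adjusted p = 6.87e-21). Mthfd2 fell by 0.66 (SE 0.0468, adjusted p = 3.70e-13), from 250.2 ± 14.4 to 158 ± 4.08 CPM, and Shmt2 by 0.48 (SE 0.0437, adjusted p = 7.95e-11), from 241 ± 11.1 to 172 ± 3.59 CPM. Mthfd1l did not pass, at 77.6 ± 2.82 and 75.6 ± 1.86 CPM (-0.04, adjusted p = 0.443). Psph fell by 0.53 and Phgdh by 0.28 (adjusted p = 1.14e-09 and 8.80e-06), while Psat1 did not pass (-0.07, adjusted p = 0.161). Of the cytosolic enzymes, Mthfd1 rose by 0.56 (SE 0.0472, adjusted p = 1.66e-11) and Shmt1 fell by 0.24 (SE 0.0423, adjusted p = 9.25e-06). Atf4 itself was lower in A/A siControl libraries, by 1.66 on the log2 scale. Other gene lists moved between the same groups: 7 of 8 epithelial markers were lower in A/A and 1 higher (median -0.85), 5 of 7 alveolar type 2 markers were higher and 1 lower (median 1.61), 9 of 10 interferon markers were lower (median -1.22), and 12 of 18 S phase genes were lower. Their part in the result was not tested.

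After Chchd10 knockdown, A/A cells had more of 4 enzymes than S/S cells and less of 3, beside 70.5% of genes called (34.7% higher, 35.8% lower). The median over the 10 was 0.09, beside -0.02 for all genes. Here too the epithelial markers (7 of 8 lower, median -1.03) and the alveolar type 2 markers (7 of 7 higher, median 3.29) differed, and their part was not tested. Mthfd1 was 282 ± 9.26 CPM in A/A against 131 ± 7.27 CPM in S/S (SD, n = 4), a rise of 1.11 (SE 0.0473, edgeR adjusted p = 2.53e-18). Psat1 was higher by 0.43, and Shmt1 and Mthfd1l by 0.18 each. Aldh1l2, Shmt2 and Mthfd2 were again lower in A/A, with log2 differences of -0.60, -0.31 and -0.19, and the interaction above tests how these differ from siControl. Psph did not pass, at 83.7 ± 3.43 and 83.8 ± 6.42 CPM, with a 95% interval of its log2 difference from -0.11 to 0.10. These 2 genotype comparisons share no libraries with each other. Each shares a group with both siChchd10 comparisons above, and the interaction is built from the same groups, so these results are not independent.

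The mitochondrial and cytosolic enzymes of each step were then compared within each library, as the log2 ratio of their counts, which does not depend on how libraries are scaled. In all 20 comparisons of 4 pairs of enzymes, the ratio was lower in the knockdown or in A/A cells than in its reference. Of the 20, 12 reached the smallest p that 4 against 4 libraries allow (0.0286, exact two-sided permutation test, or 0.0476 after Benjamini-Hochberg adjustment over the 20). These 12 are tied, so their adjusted p depends on how many reached the smallest p. They pass together or not at all, and the adjusted value does not single out any 1 pair. All 12 were among the 16 siRNA comparisons. The comparisons share groups, and the ratios of Mthfd2 and Mthfd1l share Mthfd1, so they are not independent of one another. Mthfd1l itself did not pass between genotypes under siControl and was higher in A/A under siChchd10, as given above.

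The log2 count ratio of Mthfd2 over Mthfd1 had opposite signs in the 2 genotypes. Counts are not corrected for gene length, so the sign does not rank the 2 enzymes. Per kilobase, Mthfd2 lay above Mthfd1 in A/A siControl as well (75.9 against 60.6 CPM per kb). The log2 ratio was 0.80, 1.16, 0.82 and 0.86 in S/S siControl and -0.24, -0.30, -0.37 and -0.33 in A/A siControl libraries 1 to 4. The mitochondrial enzyme thus gave more counts than the cytosolic one in S/S and fewer in A/A cells, and the difference of -1.22 was far outside the spread of either group (exact permutation p = 0.0286, adjusted 0.0476). With siChchd10 the ratio was 0.45, 0.47, 0.51 and 0.50 in S/S and -0.85, -0.85, -0.82 and -0.73 in A/A libraries, a difference of -1.30 (exact permutation p = 0.0286, adjusted 0.0476). Within each genotype siChchd10 lowered it, by 0.43 in S/S and by 0.50 in A/A, each at the same smallest p. The fall in S/S came with a lower Mthfd2 and in A/A with a higher Mthfd1, as the levels above show.

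Shmt2 over Shmt1 was 1.39, 1.51, 1.36 and 1.45 in the S/S control libraries and 1.08, 0.93, 1.15 and 1.10 in those given siChchd10. For A/A libraries it was 1.17, 1.19, 1.20 and 1.21 with siControl and 0.53, 0.53, 0.63 and 0.60 with siChchd10. Shmt2 gave more counts than Shmt1 in every library, and the ratio fell with siChchd10 by 0.36 in S/S and by 0.62 in A/A cells, and between genotypes by 0.24 and 0.49 (exact permutation p = 0.0286 and adjusted 0.0476 for each). Mthfd1l over Mthfd1 was lower in A/A by 0.60 with siControl and by 0.93 with siChchd10, and lower with siChchd10 by 0.45 in A/A, at the same p. In S/S cells its difference with siChchd10 was -0.12 and did not pass (exact permutation p = 0.0571, adjusted 0.0816). Aldh1l2 over Aldh1l1 passed, with a pseudocount of 0.5, only between genotypes under siControl (-1.92, exact permutation p = 0.0286, adjusted 0.0476), with the few counts of Aldh1l1 behind it. For Atf4 knockdown the 4 pairs differed by -0.37, -0.49, -0.37 and -1.31 in the order above, and none passed (exact permutation, adjusted p = 0.107 to 0.229). Each of the 4 ratios was lower in the shAtf4 library in 4 of 4 same-numbered pairs, for which exact sign flips cannot go below p = 0.125.

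**Figure D4:**
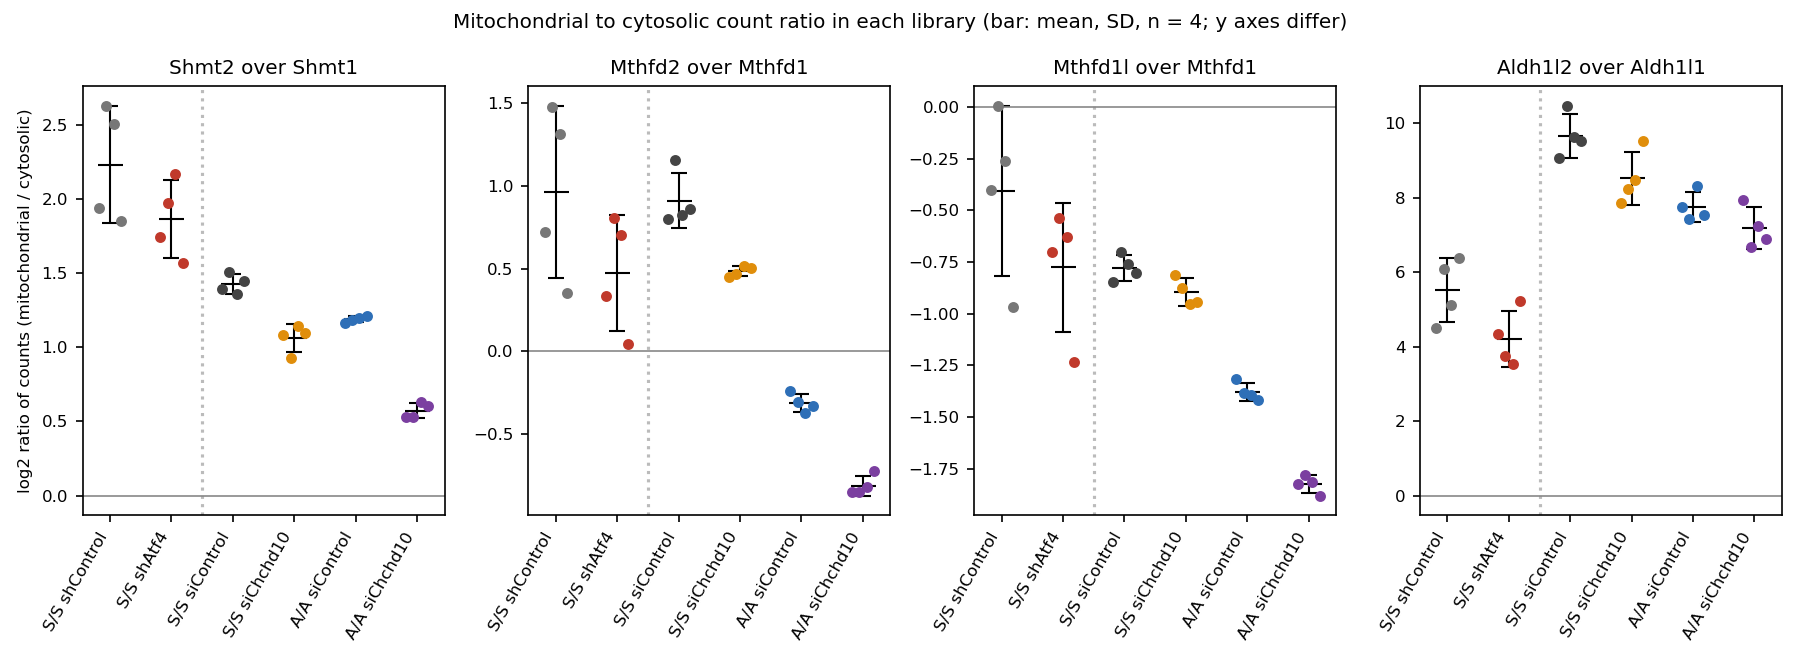
Log2 ratio of mitochondrial to cytosolic counts (y axis, its range differing between panels) in every library of the 6 groups, with mean and SD of 4 libraries as bars. Mthfd2 over Mthfd1 lies above 0 in S/S (0.45 to 1.16 in siRNA libraries) and below 0 in A/A libraries (-0.24 to -0.85). Counts are not corrected for gene length, so the side of 0 does not rank the enzymes.

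Other genes of the pathway were read from 8 further lists. With Atf4 knockdown, 1 gene of these lists passed, Fpgs of folate uptake and retention, which traps folate in cells as polyglutamate. It rose by 0.69 (SE 0.117, edgeR adjusted p = 0.0418). With 1 of the 8 libraries left out, its adjusted p stayed under 0.05 in 1 of 8 cases and ran from 0.00396 to 0.190. Cth, the last enzyme of transsulfuration, was at 144 CPM in shControl and 28.6 CPM in shAtf4 (-2.33, adjusted p = 0.0598), and passed with DESeq2. In the S phase and purine lists 0 of 18 and 0 of 13 genes passed with either tool, with 3 and 0 at an unadjusted p under 0.05. Of all genes tested, edgeR called 0.538%. With siChchd10 in S/S cells, 0 of 8 other folate enzymes passed with edgeR or DESeq2 (1 at an unadjusted p under 0.05). Of all genes, edgeR called 28% (15% higher, 13% lower). Ggh, which removes polyglutamate from folate, fell by 0.47, Cth fell by 0.65, Cdt1 fell by 0.23, and Gldc of the glycine cleavage system rose by 0.24. Srr, the serine racemase, rose by 0.38 and the purine enzyme Ppat by 0.23. Srr shares 33.4% of its exon bases with Smg6 and Tsr1 on the opposite strand. Of 13 purine synthesis genes 2 rose and 2 fell, beside the same shares of all genes. Of 18 S phase genes 0 rose and 2 fell with either tool (at an unadjusted p under 0.05, 1 and 3). The medians of the purine and S phase lists were -0.04 and -0.01, beside 0.00 for all genes.

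In A/A cells with siChchd10, 5 of 8 other folate enzymes rose and 1 fell (median 0.24, beside -0.01 for all genes). Of all genes, 53.7% were called (26.5% higher, 27.2% lower). Mthfs rose by 1.12 from a low level (1.55 to 3.35 CPM), and the folate carrier Slc46a1 by 0.71. Mthfs shares 23.7% of its exon bases with Gm29094 on the same strand, and reads over those bases could belong to either gene. Purine synthesis had 6 of 13 genes higher and 3 lower, led by Prps2 (0.52) and Ppat (0.51). S phase had 15 of 18 genes higher and 1 lower (median 0.27), among them the helicase subunits Mcm5 (0.41) and Mcm2 (0.37). Cth fell by 0.51 and the neutral amino acid carrier Slc1a5 by 0.66. In the interaction, 12 of 18 S phase genes had a higher effect in A/A and 0 a lower one. Of 13 purine genes, 7 had a higher effect in A/A and 2 a lower one. Of all genes, 35.6% were called (16.7% higher, 18.9% lower). Mcm5 was at 0.53, Gart at 0.38, Tyms at 0.41 and Gcsh at 0.36.

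Between genotypes under siControl, 8 of 13 purine genes were lower in A/A and 2 higher, and 12 of 18 S phase genes were lower and 1 higher. The list medians were -0.31 and -0.29, beside 0.01 for all genes. Of all genes, 70.2% were called (35.6% higher, 34.7% lower). Paics fell by 0.62 and Mcm6 by 1.03. Gldc, which feeds carbon from glycine into mitochondrial folate, fell by 2.33, from 57.1 to 11.4 CPM, and Cth by 1.59, Ggh by 1.98 and the mitochondrial folate carrier Slc25a32 by 0.45. Sptlc2, which uses serine for sphingolipids, rose by 1.03. After siChchd10, Gldc (-2.65), Cth (-1.45), Ggh (-1.89) and Mcm6 (-0.64) were again lower, and Prps2 (0.80) higher. Of 18 S phase genes 7 were higher and 8 lower, beside 70.5% of all genes called (34.7% higher, 35.8% lower).

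The gene most like each enzyme was read from Pearson correlations (r) of log2 CPM across libraries, as a description with no test. Over the 16 siRNA libraries, among 12104 genes, the nearest in serine synthesis were Gtf2f1 for Phgdh (0.974), Wdr55 for Psat1 (0.965) and Rbsn for Psph (0.972). Among cytosolic enzymes they were Wars for Shmt1 (0.977), Pik3c3 for Mthfd1 (0.996) and Slc35a1 for Aldh1l1 (0.807), and among mitochondrial enzymes Pitrm1 for Shmt2 (0.978), Asns for Mthfd2 (0.983), Gnas for Mthfd1l (0.927) and Nop14 for Aldh1l2 (0.987). Asns is the asparagine synthetase. Over the 8 shRNA libraries, among 11887 genes, the nearest in serine synthesis were Mcu for Phgdh (0.987), Ank3 for Psat1 (0.985) and Pycr1 for Psph (0.982). Among cytosolic enzymes they were Zfp106 for Shmt1 (0.984), Guk1 for Mthfd1 (0.995) and Dzip1 for Aldh1l1 (0.987), and among mitochondrial enzymes Adprh for Shmt2 (0.968), Gars for Mthfd2 (0.985), Eps8 for Mthfd1l (0.983) and Atf6 for Aldh1l2 (0.993). Gars is the glycyl-tRNA synthetase. In the shRNA table, Shmt2 and Mthfd2 were each among the other's nearest 3 (0.954). Libraries of a group share their genotype and knockdown, and the points are not independent. Differences between genotypes in the siRNA table, and of replicate 4 in the shRNA table, enter these correlations. Their part was not tested.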

How the data were processed

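Whole-number counts per gene, not normalised, were deposited by the authors as 1 table of 8 shRNA and 1 of 16 siRNA libraries. Per the labels' protocols, RNA was isolated with Trizol, libraries followed the TruSeq Stranded Total RNA protocol, while the labels give polyA RNA as the molecule. The submitters' processing notes list mm10 as the build and, among tools, DESeq2 1.24.0. For the aligner, counting program, strand setting and annotation, the entry is: not given in the sources used here. Every column matched 1 sample.

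Counts were tested with edgeR 4.0.16 in R 4.3.3: filterByExpr (14697 and 18138 genes kept), TMM scaling, the robust quasi-likelihood test and Benjamini-Hochberg adjustment over all genes, with a threshold of 0.05. The fits were tested on simulated data. The SE is the log2 change divided by the root of its F statistic. Each table was fitted by itself, the siRNA table with 1 term per group. Pair ratios were log2 of counts plus 0.5, compared by exact permutation. Exon lengths come from GENCODE M21. The labels do not say that a group's libraries came from separate cultures, so p-values measure only the spread between these samples. Same-numbered shRNA libraries deviated together (correlations of deviations from group means 0.450, 0.403, 0.241 and 0.789), by which the numbers were taken to pair them. The labels do not explain the numbers. The highest value is that of replicate 4, which stood apart in both groups. For number 3, the shAtf4 library correlated more with shControl library 2 (0.279). Its shControl library likewise matched shAtf4 library 2 best. Pathway genes are named by rule: up to 2 largest rises and 2 largest falls past the threshold per list and comparison, or the smallest p where none passed, with some left out or not reported here. Of the 3 most correlated genes found for each enzyme, the nearest is given. The 10 members, the lists and the alternatives (other size factors, no filter, DESeq2 1.42.0, replicate block, left-out libraries, pseudocounts) were chosen with earlier results of these data known. The Y-linked genes and the 4 RNAs abundant in S/S and near 0 in A/A siChchd10 cells were picked after their values were seen.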

Additional observations from a re-analysis of the deposited data

Results flagged for a closer look

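The effect of siChchd10 differed between genotypes by the interaction test, as A/A minus S/S on the log2 scale, for Aldh1l2 (0.94), Mthfd1 (0.55), Psph (0.53), Psat1 (0.50), Mthfd2 (0.47), Shmt1 (0.43), Mthfd1l (0.22), Phgdh (0.18) and Shmt2 (0.17). The same test separated Mcm5 (0.53), Chchd10 (0.49), Tyms (0.41), Gart (0.38), Gcsh (0.36) and Eif2s1 (0.29).

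Of 139 sets of 4 libraries of 1 gene and group, 8 had a library apart from the other 3 by Dixon's criterion, where chance gives about 1 in 20. None of the 8 concerned the 10 enzymes. Eif2s1 was at 275 CPM in 1 shControl library (others 154 to 171) and 295 CPM in 1 shAtf4 library (others 175 to 192), replicate 4 in both. Fpgs was at 51.8 CPM in 1 shControl library (others 38.5 to 39.4). Gldc was at 13.9 CPM in 1 A/A siControl library (others 10.3 to 10.9) and at 10.2 CPM in 1 A/A siChchd10 library (others 10.91 to 10.98). Cdt1 was at 111 CPM in 1 S/S siChchd10 library (others 97.8 to 99.8), Mcm6 at 203 CPM in 1 A/A siControl library (others 181 to 182), and Slc25a32 at 37.7 CPM in 1 S/S siControl library (others 43.4 to 43.9).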

How the results depend on the processing

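Under other size factors, no count filter, DESeq2, the replicate block, only the 2 groups compared, other pseudocounts and each left-out library, counts of calls stayed within 1.5 times for all 5 siRNA comparisons and no pair ratio changed sign. Atf4 knockdown was the exception. It called 79 genes, 468 with DESeq2, 2969 with the replicate block (1487 higher, 1482 lower), 1726 without both replicate 4 libraries (822 higher, 904 lower), and 13 (without shAtf4 replicate 2) to 536 (without shControl replicate 4) when single libraries were left out. Of the 10 enzymes it called 1, 0 without the count filter (3 at an unadjusted p under 0.05), 7 with the replicate block, 3 without both replicate 4 libraries, and 0 to 1 when single libraries were left out. The cause was not tested.

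The siRNA replicate numbers did not pair the libraries (correlations -0.0899 to 0.157), and with a replicate block the enzymes called numbered 6, 5, 8, 7 and 7 in place of 7, 6, 9, 7 and 7, Shmt1, Aldh1l1 and Phgdh (interaction) dropping out. Aldh1l2 over Aldh1l1 between genotypes under siChchd10 passed with a pseudocount of 5 (-1.05, exact permutation adjusted p = 0.0440).

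Values near 0 changed sign. Psph between genotypes under siChchd10 (-0.0008) became 0.0012 with other size factors, 0.010 without the filter and 0.0036 with DESeq2, and ran from -0.019 to 0.053 when single libraries were left out. Likewise, single libraries took Mthfd1l with shAtf4 from -0.19 to 0.012, Mthfd1 with siChchd10 in S/S from -0.074 to 0.0030, and Eif2s1 with shAtf4 from -0.063 to 0.39. Without A/A siControl library 1, 5 enzymes passed with siChchd10 in A/A and 7 between genotypes under siControl. Depth limits Aldh1l1 in the siRNA table.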
